A study of Mus musculus with 9 samples.

Results

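The genes of the activator protein-1 (AP-1) transcription factor and 2 further immediate-early genes were examined in tibia of diabetic and normal mice. They were taken from the deposited gene table by symbol, which gave 9 of its 18272 genes. These are the 4 members of the Fos family (*Fos*, *Fosb*, *Fosl1*, *Fosl2*), the 3 members of the Jun family (*Jun*, *Junb*, *Jund*), *Egr1* and *Ier2*. The genes were selected on their measured expression in these same 9 libraries, and which difference between groups led to the choice is not recorded. Every group difference of theirs is therefore given as a description, and nothing is supported with it. The study also took *Fos* up for follow-up after seeing these libraries.

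RNA was sequenced from 1 tibia of each of 9 female C57BL/6J mice, 3 per group, bought at 10 to 11 weeks of age. NGT mice had normal glucose tolerance and received the citrate vehicle and then saline. T1D mice had been made diabetic by 1 injection of streptozotocin (STZ), which poisons pancreatic beta cells, and received saline. Lira mice were diabetic after STZ as well and received 0.6 mg/kg/day of liraglutide, which activates the receptor of the incretin hormone GLP-1. Lira mice 1 and 2 are labelled as treated for 8 weeks and Lira mouse 3 for 9 weeks. STZ kills beta cells chemically and is a model of insulin deficiency rather than of autoimmune diabetes. The tibias were cleaned of muscle and connective tissue according to the labels, and the whole remaining tissue was extracted.

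AP-1 is a dimer. Fos proteins cannot pair with each other and bind DNA only with a Jun partner, whereas Jun proteins can also pair among themselves, and the dimer reads the sequence TGANTCA. *Fos*, *Fosb*, *Jun*, *Junb*, *Egr1* and *Ier2* are classical immediate-early genes, which are transcribed within minutes of a growth factor, cytokine, mechanical or stress signal from proteins already present in the cell, and whose mRNAs are short-lived. *Jund* is expressed more steadily, and *Fosl1* and *Fosl2* follow later. In bone, *Fos* is needed for the formation of osteoclasts, where it acts upstream of *Nfatc1*, and *Fosl1*, *Fosl2*, *Junb* and *Jund* have known roles in osteoblasts and bone formation.

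The sequences just upstream of 3 genes are printed because *Fos* and *Junb* had the largest fold differences between T1D and NGT mice and *Jun* varied apart from the other genes. Each is the 250 bases before the annotated start in RefSeq (GRCm38.p6), 5′ to 3′. Capitals mark the motifs found, namely TGACG (a half-site of the cAMP response element), TGACNTCA (the related full AP-1/ATF site), the TATA box TATAAA and the CCAAT box. The submitters' processing notes name mm9, so these windows were matched by gene number and not by coordinates of the files.
Fos upstream, chr12:85473640-85473889 (+ strand): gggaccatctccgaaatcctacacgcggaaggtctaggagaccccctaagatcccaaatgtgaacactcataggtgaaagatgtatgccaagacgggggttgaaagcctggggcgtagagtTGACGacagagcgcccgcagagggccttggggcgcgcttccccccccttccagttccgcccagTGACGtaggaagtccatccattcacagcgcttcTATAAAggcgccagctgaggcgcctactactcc
Junb upstream, chr8:84978749-84978998 (- strand): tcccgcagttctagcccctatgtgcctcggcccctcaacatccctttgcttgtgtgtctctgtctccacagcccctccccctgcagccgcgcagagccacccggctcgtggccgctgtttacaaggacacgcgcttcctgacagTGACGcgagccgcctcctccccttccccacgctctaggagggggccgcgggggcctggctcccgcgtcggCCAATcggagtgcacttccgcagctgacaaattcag
Jun upstream, chr4:95052223-95052472 (- strand): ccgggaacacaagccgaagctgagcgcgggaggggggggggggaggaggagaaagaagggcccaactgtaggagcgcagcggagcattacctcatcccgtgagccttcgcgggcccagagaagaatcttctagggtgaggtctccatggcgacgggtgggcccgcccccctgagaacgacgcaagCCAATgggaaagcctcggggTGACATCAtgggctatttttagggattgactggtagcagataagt

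For the genes of the set, windows on 1 chromosome were left out of the search. Windows were used for 6 of the 9 genes, *Fos*, *Fosb*, *Fosl2*, *Jun*, *Junb* and *Jund*. The counts below do not cover *Fosl1*, *Egr1* and *Ier2*. On either strand, TGACG occurred in 3 of the 6 (*Fos*, *Fosb*, *Junb*) and in 17.9% of all 32536 windows of this length. TGACNTCA occurred in 1 of the 6 (*Jun*, as TGACATCA, 45 to 38 bases before the start) and in 7.43% of all windows. A TGACNTCA site with G at its open base also holds TGACG, so that these searches overlap. TATAAA was found in *Fos* only (12.3% of all windows), CCAAT in *Jun* and *Junb* (33.8%) and the EGR motif GCGNGGGCG in *Fosb* and *Fosl2* (4.74%). TGANTCA (6.73% of all windows) and the CArG box of serum response factor (1.48%), which was also searched on both strands, were in 0 of the 6 windows. The window of *Jund* held none of the 7 motifs searched. These are matches of letters in a short window and not binding sites shown to be in use.

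Library totals were between 13086373 and 16528394 counts. Since 30.2% of the counts were not whole numbers, they are estimated counts and were rounded before the test. The test covered the 13960 of 18272 genes that reached 10 counts in 3 or more libraries. Levels are given as CPM, counts scaled to a common library total after correction with edgeR's TMM factors, which ran from 0.883 to 1.25. Skeletal muscle transcripts were abundant in every library in spite of the cleaning, and the summed level of 19 muscle genes was 115910 to 303010 CPM. It was lowest in T1D mouse 1, NGT mouse 1 and Lira mouse 3, the 3 libraries with the highest TMM factors. Bone cell markers were also present, with 10 osteoblast genes summing to 211 to 5841 CPM and 9 osteoclast genes to 10.2 to 377 CPM.

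Of the 9 genes, 8 passed the filter. The gene left out was *Fosl1*, which encodes Fra-1. Its rounded counts were 0 or 1 in every library, below the 3 counts that a count of 0 allows (0.182 to 0.229 CPM, counting error only). It was therefore not detectable at this depth and no fold is given.

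*Fos* encodes c-Fos. Its level was 5.84, 6.88 and 3.48 CPM in NGT mice 1 to 3, 19.03, 10.4 and 6.74 CPM in T1D mice and 8.14, 7.32 and 16.6 CPM in Lira mice. T1D mouse 1 and Lira mouse 3 were high, and T1D mouse 3 lay below NGT mouse 2, so that the NGT and T1D groups overlapped. The means were 5.40 ± 1.74 CPM (SD, n = 3) in NGT, 12.1 ± 6.31 CPM (SD, n = 3) in T1D and 10.7 ± 5.13 CPM (SD, n = 3) in Lira mice. All 3 Lira mice were above all 3 NGT mice for *Fos* in TMM-scaled CPM, as 2.49% of tested genes were, but the groups overlapped in the deposited FPKM values.

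*Fosb* was close to the detection limit. It stood at 1.40, 0.773 and 0.238 CPM in NGT mice, 2.34, 0.851 and 0.800 CPM in T1D mice and 0.642, 0.935 and 1.49 CPM in Lira mice. These values rest on 3 to 43 counts per library, and the 3 groups overlapped.

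*Fosl2* encodes Fra-2, an AP-1 subunit of osteoblasts and osteoclasts. Its level was 20.1, 14.85 and 15.8 CPM in NGT mice, 33.2, 21.5 and 23.1 CPM in T1D mice and 52.2, 17.6 and 27.7 CPM in Lira mice. Every T1D mouse was above every NGT mouse in TMM-scaled CPM, as for 3.52% of tested genes, but not by library size or in FPKM. The Lira mice spread over the range of both other groups and above it, Lira mouse 1 being the highest of all 9.

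*Jun* encodes c-Jun. It was at 52.7, 94.9 and 69.6 CPM in NGT mice, 87.8, 112 and 79.0 CPM in T1D mice and 174, 97.2 and 68.9 CPM in Lira mice. Lira mouse 1 stood out and all groups overlapped, with means of 72.4 ± 21.3 CPM, 93.0 ± 17.1 CPM and 113 ± 54.2 CPM (SD, n = 3) in NGT, T1D and Lira mice.

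*Junb*, whose protein is an immediate-early partner of Fos proteins and often acts against c-Jun, was at 9.77, 5.80 and 4.99 CPM in NGT mice, 20.9, 10.2 and 13.7 CPM in T1D mice and 13.99, 8.18 and 15.7 CPM in Lira mice. T1D and NGT mice did not overlap in TMM-scaled CPM, as for 3.52% of tested genes, though T1D mouse 2 and NGT mouse 1 were close. By library size and in FPKM these groups overlapped. Lira mice overlapped with both groups.

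*Jund*, whose protein can slow proliferation, was at 62.7, 44.8 and 39.3 CPM in NGT mice, 136, 68.3 and 75.3 CPM in T1D mice and 51.0, 59.8 and 78.1 CPM in Lira mice. T1D mouse 1 had the highest level by far. Again every T1D mouse was above every NGT mouse in TMM-scaled CPM, as for 3.52% of tested genes, but not by library size or in FPKM. The means were 48.9 ± 12.2 CPM in NGT, 93.1 ± 37.1 CPM in T1D and 62.9 ± 13.8 CPM in Lira mice (SD, n = 3).

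*Egr1*, a zinc finger factor induced by serum and by mechanical load, was at 22.1, 5.65 and 11 CPM in NGT mice, 17.45, 14.5 and 22.9 CPM in T1D mice and 26.7, 18.2 and 18.7 CPM in Lira mice. NGT mouse 1 was as high as the diabetic mice, and the groups overlapped. *Ier2*, a small nuclear protein gene, was at 9.84, 3.94 and 6.02 CPM in NGT mice, 9.62, 6.81 and 10.5 CPM in T1D mice and 8.49, 5.61 and 14.9 CPM in Lira mice, and its groups overlapped in the same way.

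**Figure D1:**
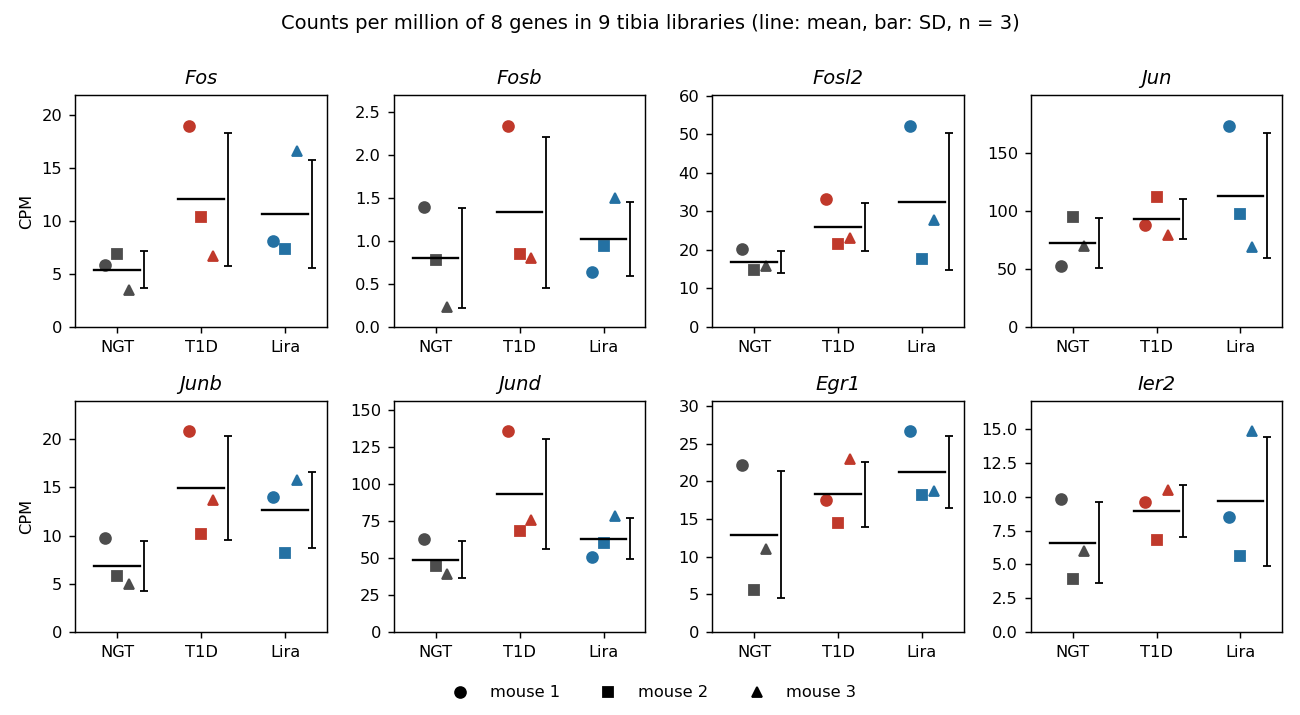
Level in CPM (y axis, linear and starting at 0) of the 8 tested genes in the NGT, T1D and Lira libraries (x axis). Each point is 1 mouse, with the mouse number as its shape, the line is the group mean and the bar the SD (n = 3). T1D mouse 1 has the highest level of *Fos*, *Fosb*, *Junb* and *Jund*, and Lira mouse 1 that of *Fosl2*, *Jun* and *Egr1*.

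Between genes, levels were compared as FPKM, the deposited values per gene length. Over the 9 libraries *Jun* had the highest mean (28.6 FPKM, from 19.1 to 49.7) and *Jund* the next (24.7 FPKM, from 11.99 to 58.4). *Jun* exceeded *Jund* in 5 of 9 libraries, so these neighbours were not told apart. *Jund* exceeded *Junb* (6.52 FPKM) in 9 of 9. *Junb*, *Ier2* (5.76 FPKM), *Egr1* (5.76 FPKM), *Fos* (4.73 FPKM) and *Fosl2* (4.30 FPKM) followed closely, each exceeding the next in 4 to 6 of 9 libraries. *Fosb* (0.306 FPKM) was lower than *Fosl2* in 9 of 9 libraries.

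Jun transcripts were therefore in excess over Fos transcripts in these tibias. The summed FPKM of the Jun family was between 4.37 (Lira mouse 3) and 8.57 times (NGT mouse 3) that of the Fos family. This ratio was 7.73 ± 0.994 in NGT, 6.92 ± 1.22 in T1D and 6.27 ± 1.95 in Lira mice (SD, n = 3), and the groups overlapped. *Fos* and *Fosl2* made up nearly all of the Fos family, with *Fosl2* from 35.8% (Lira mouse 3) to 68.5% (Lira mouse 1) of its FPKM. Within the Jun family the share of *Jun* was lowest in T1D mouse 1 (31.95%) and highest in Lira mouse 1 (68.2%). The share of *Jund* ran the other way, from 22.2% in Lira mouse 1 to 54.8% in T1D mouse 1.

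**Figure D2:**
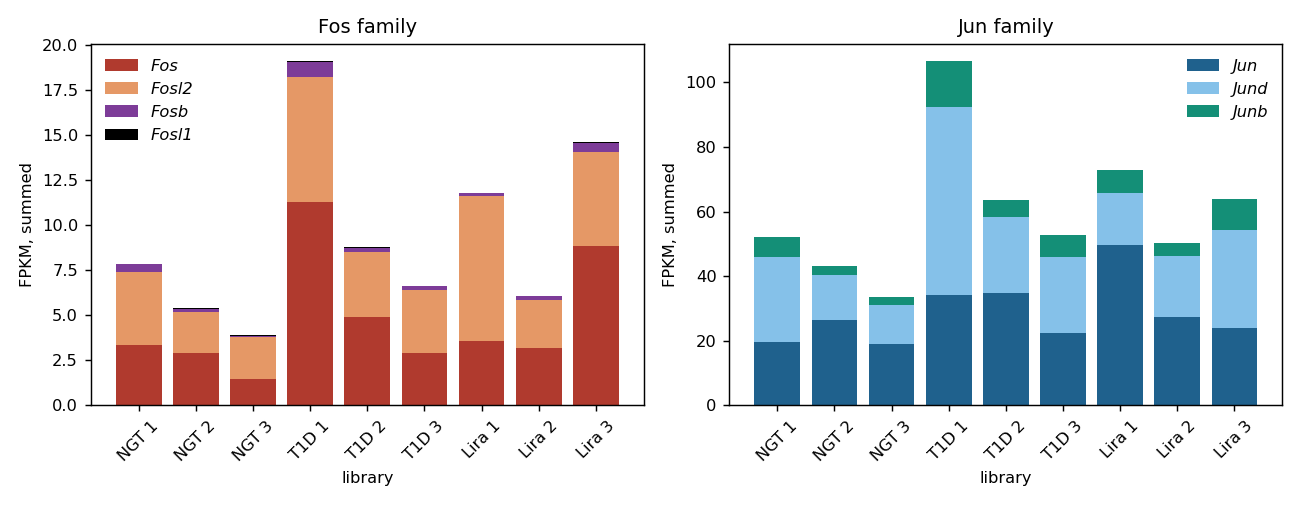
Summed FPKM (y axis, linear and starting at 0) of the Fos family (left) and the Jun family (right) in each of the 9 libraries (x axis), divided by gene. The Jun family reaches 107 FPKM in T1D mouse 1 against 19.1 FPKM for the Fos family, and the proportion of *Jun* to *Jund* differs between libraries of the same group.

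The comparison of T1D with NGT mice addresses what insulin-deficient diabetes changed in the tibia. All 8 genes had a higher mean in T1D mice, as 52.1% of tested genes had a log2 fold change above 0. The log2 fold changes were 1.16 (standard error 0.48) for *Fos*, 1.12 (0.38) for *Junb*, 0.93 (0.31) for *Jund*, 0.72 (0.70) for *Fosb*, 0.62 (0.37) for *Fosl2*, 0.50 (0.44) for *Egr1*, 0.44 (0.44) for *Ier2* and 0.36 (0.35) for *Jun*. Their median was 0.67 against 0.02 over all tested genes. A fitted fold change over 2 was found for 2 of the 8, *Fos* and *Junb*, and for 5.27% of tested genes in this direction. A call needed a fold change over 2 and an adjusted p-value under 0.05. Of the 8 genes 0 were called, and of all 13960 tested genes 0 (0.0%) as well, 0.977 being the lowest adjusted p-value (edgeR quasi-likelihood F-test, Benjamini-Hochberg). Without adjustment, *Fos*, *Junb* and *Jund* had p-values under 0.05, 3 of the 8 genes, as did 2.36% of tested genes in this direction. DESeq2 likewise called 0 of the 8 genes, with 3 at an unadjusted p-value under 0.05, against 4.99% of tested genes in either direction.

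The separation of the groups depended on how the libraries were scaled. With TMM factors, *Fosl2*, *Junb* and *Jund* were higher in every T1D mouse than in every NGT mouse, a pattern shown by 3.52% of tested genes. With CPM by library size, or with the deposited FPKM values, 0 of the 8 genes separated the groups, and NGT mouse 1 lay above T1D mouse 2 for *Fosl2*, *Junb* and *Jund*. With library size the median log2 fold change was 0.75, and 0 of the 8 genes had an unadjusted p-value under 0.05.

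Since deviations from the group means were correlated between same-numbered NGT and T1D mice, the numbers were also read as pairs. The labels give no pairs, and this reading was chosen on these same data, so it is a description only. For *Fos* the T1D mouse had 3.26, 1.51 and 1.93 times the level of the NGT mouse of the same number. For *Junb* these ratios were 2.14, 1.76 and 2.75, and for *Jund* 2.17, 1.53 and 1.91. *Fosl2* (1.65, 1.45 and 1.47), *Jun* (1.67, 1.18 and 1.14) and *Fosb* (1.67, 1.10 and 3.37) were higher in 3 of 3 pairs as well. *Egr1* and *Ier2* were higher in 2 of 3 pairs, with pair 1 at 0.788 and 0.978. A higher level in all 3 pairs was seen in 6 of the 8 genes and in 19.2% of all tested genes.

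T1D mouse 1 contributed much to these differences. Without it the log2 fold changes were 0.66 for *Fos*, 0.80 for *Junb*, 0.55 for *Jund* and 0.03 for *Fosb*, the median was 0.46, and the unadjusted p-value was under 0.05 for 0 of the 8 genes. The same count was 0 without NGT mouse 3, with a median of 0.48. Without NGT mouse 1 the median was instead 1.14, with 1.47 for *Junb* and 1.14 for *Egr1*.

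**Figure D3:**
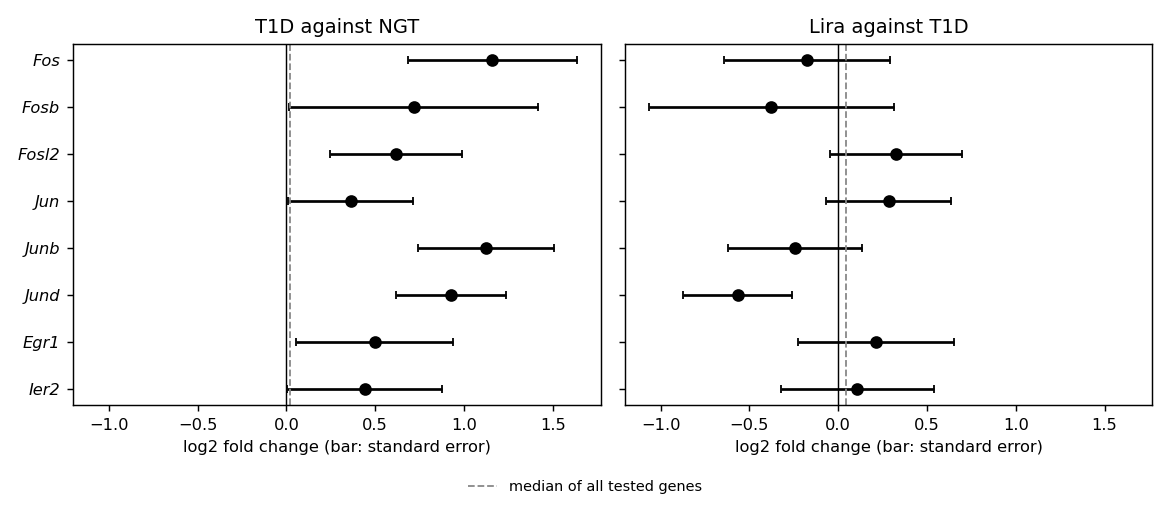
Log2 fold change (x axis) of the 8 tested genes in T1D against NGT mice (left) and in Lira against T1D mice (right), with the standard error of edgeR's fit as the bar. The dashed line is the median of all tested genes. On the left all points are above 0, from 0.36 to 1.16, and on the right they lie on both sides of 0.

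**Figure D4:**
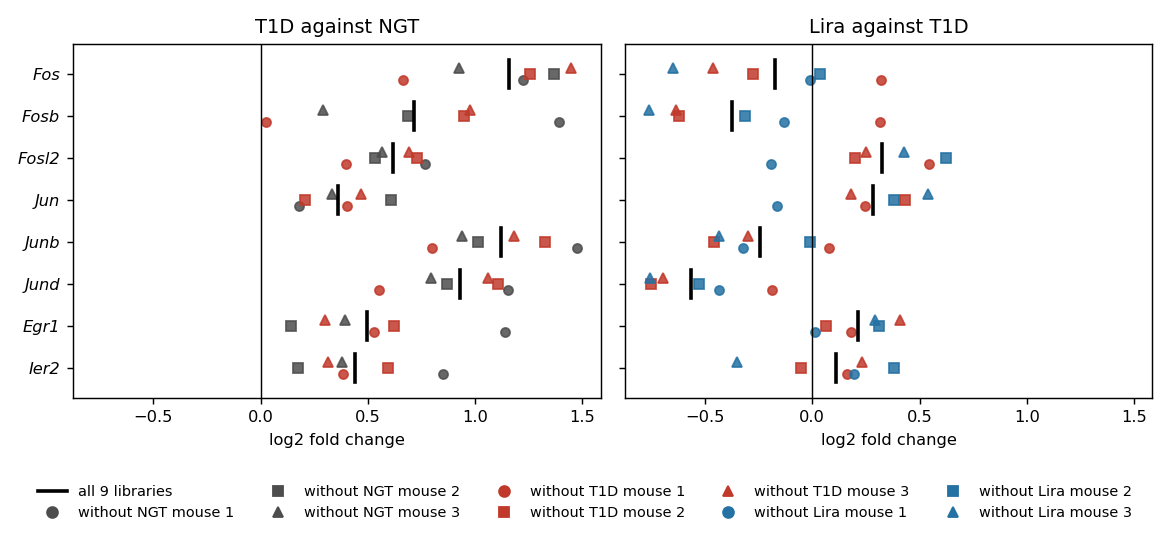
Log2 fold change (x axis) of the 8 genes with all 9 libraries (black line) and without 1 mouse of the compared groups (points, coloured by the group of the mouse left out). In T1D against NGT mice the points stay above 0, down to 0.03 for *Fosb* without T1D mouse 1, and in Lira against T1D mice those of 6 genes lie on both sides of 0.

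The comparison of Lira with T1D mice addresses what liraglutide changed in diabetic tibia. It uses the same 3 T1D mice. Here 4 of the 8 genes had a higher and 4 a lower mean in Lira mice, and 55.3% of tested genes had a log2 fold change above 0. The log2 fold changes were -0.57 (standard error 0.31) for *Jund*, -0.38 (0.69) for *Fosb*, -0.24 (0.38) for *Junb*, -0.17 (0.47) for *Fos*, 0.11 (0.43) for *Ier2*, 0.21 (0.44) for *Egr1*, 0.28 (0.35) for *Jun* and 0.33 (0.37) for *Fosl2*. Their median was -0.03 against 0.04 over all tested genes. For 7 of the 8 genes the difference was smaller than its standard error, and for *Jund* it was larger. Of the 8 genes 0 were called, and of all 13960 tested genes 0 (0.0%) as well, with 0.978 as the lowest adjusted p-value (edgeR quasi-likelihood F-test, Benjamini-Hochberg). Of the 8 genes, 0 had an unadjusted p-value under 0.05, against 3.33% of tested genes in either direction. DESeq2 called 0 of the 8 and had 0 at an unadjusted p-value under 0.05, against 4.44% of tested genes.

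Single Lira and T1D mice set the sign of this comparison for most genes. Without T1D mouse 1, 7 of the 8 genes were higher in Lira mice, with a median of 0.21, *Jund* being the exception at -0.19. Without Lira mouse 3 the median was -0.39, with -0.65 for *Fos*. *Fosl2* and *Jun* were lower in Lira mice (-0.19 and -0.16) once Lira mouse 1 was left out. The groups of Lira and T1D mice overlapped for all 8 genes, whereas 3.74% of tested genes were higher and 3.4% lower in every Lira mouse than in every T1D mouse.

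By edgeR's biological coefficient of variation, all but *Jund* of the 8 genes varied more between mice than the median gene, *Jun* only slightly so. By the within-group SD of log2(CPM + 1), all 8 genes varied more. The lowest SD was 0.405 for *Jund*, against 0.314 for the median gene, and *Jun* had 0.478. The biological coefficient of variation, the SD between mice of a group as a fraction of the mean in edgeR's estimate, had a median of 0.384 over the 8 genes and of 0.307 over all tested genes. It was highest for *Fosb* (0.584, above 85.5% of tested genes) and *Fos* (0.439, above 73.8%) and lowest for *Jund* (0.2915, above 45.9%). Between the lowest and the highest library the CPM differed 5.46-fold for *Fos*, 4.73-fold for *Egr1*, 4.19-fold for *Junb*, 3.77-fold for *Ier2*, 3.52-fold for *Fosl2*, 3.45-fold for *Jund* and 3.30-fold for *Jun*. The median over all tested genes was 2.12-fold. For *Fosb*, with 3 counts in its lowest library, the ratio was 9.84.

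Most of these genes were high or low in the same libraries. Of the 8 genes, 8 were among their 3 lowest values in NGT mouse 3 and 6 in NGT mouse 2. In Lira mouse 3, 6 genes were among their 3 highest values, in T1D mouse 1 5 genes and in Lira mouse 1 4 genes. Across the 9 libraries the 28 pairs of genes had a median Pearson correlation of log2(CPM + 1) of 0.54 (Spearman 0.57), from -0.29 for *Jun* and *Ier2* to 0.88 for *Fosb* and *Jund*. The 21 pairs without *Jun* had a median of 0.67 and the 7 pairs with *Jun* a median of 0.09. *Junb* followed the mean of the other 7 genes most closely (Pearson 0.98) and *Jun* least (0.08). These correlations rest on 9 libraries whose genes share depth, scaling and tissue composition, and they include the differences between groups. As deviations from the group means the median over the 28 pairs was 0.37.

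Among 10406 other genes with at least 5 CPM on average, the 6 whose log2(CPM + 1) was most like the mean of the 8 genes over the 9 libraries were *Cdc42ep4* (Pearson 0.96), *Notch2* (0.93), *Nubp2* (0.93), *Supt4a* (0.93), *Ier5* (0.93) and *Il4ra* (0.92). *Ier5* is itself an immediate-early gene related to *Ier2*, and *Notch2* encodes a receptor of the Notch family. *Ier5* was at 8.44, 8.28 and 6.10 CPM in NGT mice, 18.1, 9.62 and 14.3 CPM in T1D mice and 16.8, 10.7 and 15.4 CPM in Lira mice. In TMM-scaled CPM both diabetic groups lay above the NGT mice for *Ier5*, as 3.52% (T1D) and 2.49% (Lira) of tested genes did, but with library size or FPKM the groups overlapped. *Ier5* was picked here for its likeness to the 8 genes, so its order of groups is not separate evidence. The ranking itself was loose. With 1 library left out, 1 to 4 of the 6 genes were still among the 6 most alike, and with Spearman's measure 1 was.

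The other genes around AP-1 were read from lists written by hand. None of their genes passed the thresholds in either comparison, and their counts are given with medians of log2 fold changes, to be set against 0.02 (T1D against NGT) and 0.04 (Lira against T1D) over all tested genes. Of 29 tested further immediate-early genes, 23 had a higher and 6 a lower mean in T1D than in NGT mice, with a median of 0.57. Without T1D mouse 1 the split was the same and the median 0.19. Without adjustment, 3 higher genes (*Egr2*, *Ier5* and *Klf4*) and 1 lower gene (*Nr4a3*) had p-values under 0.05, as did 2.36% and 1.6% of tested genes in these directions. Apart from *Ier5* they were named after their values were seen. With 1 mouse left out, the number of such higher genes ran from 0 (without NGT mouse 3) to 6 (without T1D mouse 3).

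*Klf4*, a zinc finger factor of differentiation and inflammation, was at 29.5, 27.2 and 16.9 CPM in NGT, 56.7, 43.3 and 34.7 CPM in T1D and 39.5, 23.7 and 29.3 CPM in Lira mice, and T1D lay above NGT mice in TMM-scaled CPM, as for 3.52% of tested genes, and overlapped with them by library size and in FPKM. *Nr4a3*, a nuclear receptor gene induced in exercised muscle, was at 12.1, 30.8 and 18.5 CPM in NGT, 6.25, 8.18 and 4.87 CPM in T1D and 15.1, 5.92 and 3.79 CPM in Lira mice, so that the order of T1D and NGT mice was opposite to that of *Fos*. *Nr4a1*, its relative and one of the 3 most abundant genes of the list, was at 168 ± 53.0 CPM in NGT, 131 ± 47.2 CPM in T1D and 106 ± 41.5 CPM in Lira mice (SD, n = 3). The other 2, *Mcl1* (an inhibitor of apoptosis) and *Gadd45g* (a stress sensor), had means of 207 ± 19.2, 221 ± 34.1 and 220 ± 47.5 CPM and of 35.7 ± 12.3, 54.6 ± 22.6 and 66.3 ± 27.2 CPM in NGT, T1D and Lira mice (SD, n = 3).

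Between Lira and T1D mice, 15 of the 29 genes had a higher and 14 a lower mean, with a median of 0.03, which ran from -0.18 without Lira mouse 1 to 0.21 without T1D mouse 1. *Btg2*, an antiproliferative gene, and *Egr2* had unadjusted p-values under 0.05, the first higher and the second lower in Lira mice, as did 1.55% and 1.78% of tested genes, and *Btg2* was also named after its values were seen. *Btg2* was at 38.1, 39.9 and 32.01 CPM in T1D and 154, 40.7 and 85.8 CPM in Lira mice. These groups were apart in TMM-scaled CPM only by the small gap between T1D mouse 2 and Lira mouse 2, as 3.74% of tested genes were, and they overlapped by library size and in FPKM.

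Feedback regulators and mRNA decay factors limit the immediate-early response. Of 18 tested, 13 had a higher and 5 a lower mean in T1D than in NGT mice (median 0.22), and 7 a higher and 11 a lower mean in Lira than in T1D mice (median -0.12). With 1 mouse left out the first median ran from 0.10 (without T1D mouse 1, and also without NGT mouse 3) to 0.31 (without NGT mouse 1), and the second from -0.19 (without Lira mouse 3) to 0.0026, with 9 higher and 8 lower, without T1D mouse 1. *Dusp1*, a phosphatase of MAP kinases, was at 77.2 ± 5.31 CPM in NGT, 88.1 ± 7.43 CPM in T1D and 76.4 ± 24.2 CPM in Lira mice (SD, n = 3). *Zfp36*, which directs AU-rich mRNAs to decay, was at 50.8 ± 5.96, 60.8 ± 3.96 and 63.9 ± 10.8 CPM, and its relative *Zfp36l1* at 65.2 ± 19.6, 97.2 ± 38.9 and 75.3 ± 1.49 CPM in the same order (SD, n = 3).

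Genes that drive immediate-early transcription had medians near 0. Among 16 serum response factor, ternary complex factor and CREB genes, 8 had a higher and 8 a lower mean in T1D mice (median 0.01, from -0.08 without T1D mouse 2 to 0.13 without T1D mouse 1), with *Srf* at 93.2 ± 18.5 CPM in NGT, 84.4 ± 6.22 CPM in T1D and 84.6 ± 18.7 CPM in Lira mice (SD, n = 3). Of 17 tested MAP kinase cascade genes, 5 had a higher and 12 a lower mean in T1D mice (median -0.11, from -0.29 without NGT mouse 1 to -0.02 without NGT mouse 3). In Lira against T1D mice 11 of them had a higher and 6 a lower mean (median 0.11, from 0.03 without T1D mouse 1 to 0.19 without Lira mouse 1). *Map2k3*, a kinase upstream of p38, and *Mapk12*, a p38 kinase of muscle, stood at 201 ± 48.4 and 150 ± 30.0 CPM in NGT and at 161 ± 42.2 and 142 ± 24.2 CPM in T1D mice (SD, n = 3). The 12 tested other bZIP genes of the AP-1 superfamily had a median of 0.12 (from 0.03 without NGT mouse 1 to 0.18 without NGT mouse 2), 8 with a higher and 4 with a lower mean, and included *Atf4*, the effector of the integrated stress response, at 233 ± 40.1 CPM in NGT, 257 ± 26.0 CPM in T1D and 266 ± 51.2 CPM in Lira mice (SD, n = 3).

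Lists of osteoclast genes and of candidate AP-1 targets had larger medians. Of 15 tested genes of the route from RANK to the osteoclast, which holds receptors upstream of AP-1 as well as genes of the mature cell, 11 had a higher and 4 a lower mean in T1D than in NGT mice (median 1.72), and 3 a higher and 12 a lower mean in Lira than in T1D mice (median -1.04). With 1 mouse left out the first median ran from 0.56 (without T1D mouse 1) to 2.55 (without NGT mouse 1) and the second from -1.55 (without Lira mouse 3) to 0.03 (without T1D mouse 1). *Nfatc1*, the factor that acts after *Fos*, had a log2 fold change of -0.09 in T1D against NGT mice and was named after its values were seen. *Ctsk*, the collagen-degrading protease of osteoclasts, was at 30.4, 2.78 and 11.95 CPM in NGT, 117, 32.7 and 72.9 CPM in T1D and 34.0, 5.06 and 47.5 CPM in Lira mice. The T1D mice lay above all NGT mice for *Ctsk* in TMM-scaled CPM, as for 3.52% of tested genes, whereas by library size and in FPKM T1D mouse 2 was below NGT mouse 1. *Acp5*, also among the most abundant genes of the list, was at 35.3, 3.02 and 12.6 CPM in NGT, 110, 26.9 and 89.2 CPM in T1D and 34.4, 3.97 and 62.9 CPM in Lira mice. Its T1D and NGT groups overlapped in TMM-scaled CPM as well. Of 18 tested candidate AP-1 targets, 16 had a higher and 2 a lower mean in T1D mice (median 1.00, from 0.31 without T1D mouse 1 to 1.71 without NGT mouse 1), and 6 a higher and 12 a lower mean in Lira than in T1D mice (median -0.47, from -1.20 without Lira mouse 3 to 0.09 without T1D mouse 1). *Spp1*, which encodes the matrix protein osteopontin, was at 34.2 ± 34.0 CPM in NGT, 209 ± 92.5 CPM in T1D and 89.7 ± 85.7 CPM in Lira mice (SD, n = 3). *Cdkn1a*, which encodes the cell cycle inhibitor p21, had its lowest mean in T1D mice, where *Spp1* had its highest, with 218 ± 36.0 CPM in NGT, 170 ± 71.4 CPM in T1D and 380.0 ± 274 CPM in Lira mice (SD, n = 3), and its Lira mean rested largely on Lira mouse 1 (685 CPM). *Fth1*, a ferritin subunit gene and the most abundant of the list, was at 1225 ± 191, 1632 ± 152 and 1222 ± 173 CPM in NGT, T1D and Lira mice (SD, n = 3). Several osteoclast genes of the list, *Ctsk* among them, had been picked by the study from these same libraries, so their direction is not independent evidence.

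A list of 15 stress and glucocorticoid genes had medians of 0.34 (11 higher, 4 lower) in T1D against NGT and 0.27 (12 higher, 3 lower) in Lira against T1D mice, and neither direction was stable. The first median was -0.15 (6 higher, 9 lower) without T1D mouse 1, and the second ran from -0.11 (6 higher, 9 lower) without Lira mouse 1 to 0.65 without T1D mouse 1. *Mt1* and *Mt2*, which encode metal-binding metallothioneins, were highest in Lira mouse 1 (262 and 307 CPM), the library that was also highest for *Fosl2*, *Jun* and *Egr1*. *Hspb1*, a small heat shock protein gene, was highest in T1D mouse 1 (907 CPM, against 124 to 336 CPM in the other libraries), the library highest for *Fos*, *Fosb*, *Junb* and *Jund*.

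Markers of the cell types in the bone differed between the libraries as well. In bulk tissue, fewer cells of a type and less RNA per cell cannot be told apart. The summed level of 11 macrophage genes was 53.7 to 168 CPM in NGT, 111 to 1025 CPM in T1D and 110 to 194 CPM in Lira mice, the highest value being that of T1D mouse 1. The 10 osteoblast genes summed to 211 to 1460, 809 to 5841 and 428 to 1391 CPM in NGT, T1D and Lira mice, again with the maximum in T1D mouse 1. The 9 osteoclast genes summed to 10.2 to 167, 97.2 to 377 and 21.8 to 350 CPM in the same order. The 19 muscle genes summed to 152940 to 303010, 115910 to 288070 and 160400 to 267880 CPM in NGT, T1D and Lira mice.

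Blood and marrow markers were highest in other libraries. The 13 neutrophil genes summed to 10.9 to 2473 CPM in NGT, 66.1 to 1523 CPM in T1D and 122 to 5328 CPM in Lira mice, and the 12 erythroid genes to 349 to 4629, 422 to 13311 and 704 to 20948 CPM, with Lira mouse 3 highest for both. The 9 B cell genes (17.2 to 234 CPM over the 9 libraries) were also highest in Lira mouse 3, and the 6 osteocyte genes (7.04 to 39.1 CPM), 7 chondrocyte genes (10.8 to 189 CPM) and 7 adipocyte genes (983 to 2851 CPM) in T1D mouse 1. The 8 endothelial genes ran from 361 CPM in T1D mouse 1 to 650 CPM in Lira mouse 2. No marker on these lists was at 0 in all 9 libraries. The part of this tissue composition in the levels of the AP-1 genes was not tested.

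**Figure D5:**
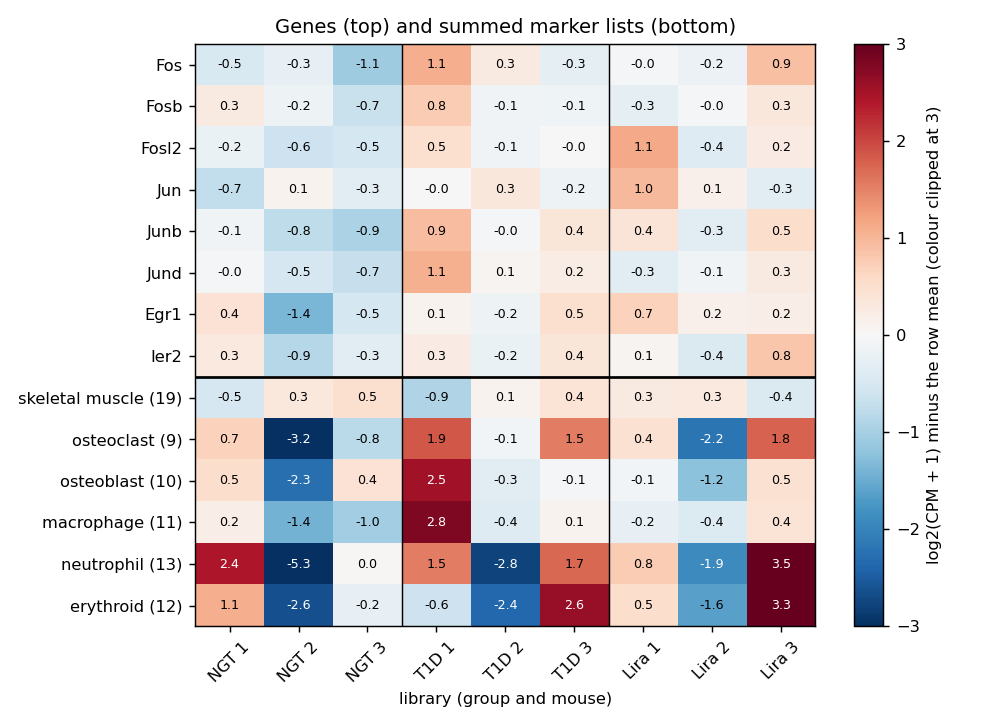
Level of the 8 genes (top rows) and of 6 summed marker lists (bottom rows, number of genes in brackets) in the 9 libraries (columns), as log2(CPM + 1) minus the mean of the row. T1D mouse 1 is above the row mean for *Fos* (1.09), *Junb* (0.92) and *Jund* (1.07) and for the macrophage (2.80), osteoblast (2.53) and osteoclast (1.86) lists, and below it for skeletal muscle (-0.91).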

How the data were processed

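RNA of 9 tibias (3 NGT, 3 T1D and 3 Lira mice) was sequenced by the authors from oligo(dT)-enriched mRNA, and clean reads were aligned to the mouse genome. The submitters' processing notes name mm9, and the aligner, counting tool, annotation and strand setting are not given in the sources used here. The authors deposited expected counts per gene without normalization, and FPKM values, in which the authors had corrected for transcript length and sequencing depth. The header does not name this unit, and FPKM was read from the ratio of these values to the counts. The labels call NGT, T1D and Lira libraries Control, Model and Drug. The authors' group means in the same table were not used. The 9 gene numbers carried the same symbols in RefSeq.

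The expected counts were rounded to whole numbers, a gene was kept if 3 or more libraries reached 10 counts, and edgeR 4.0.16 in R 4.3.3 was run with TMM factors, glmQLFit and glmQLFTest on 1 mean per group over all 9 libraries. Thresholds were a Benjamini-Hochberg adjusted p-value under 0.05 over all tested genes and a fold change over 2. Standard errors come from the F statistic. The procedure was tested on simulated data. Since nothing but the sample labels tells the mice of a group apart, p-values set a group difference against the spread between these libraries, 1 per mouse.

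The genes of the set, the lists and the tests were chosen with earlier results of these data known. Named genes were the set itself, the 6 genes most correlated with its mean, and at most the 3 (pathway lists) or 2 (marker lists) most abundant genes of each list, of which those that bear on the set are given. Genes named after their values were seen are marked. Same-numbered NGT and T1D mice had correlated deviations from their group means across genes (r = 0.583, 0.647 and 0.283), and T1D and Lira mice did not throughout (-0.244, 0.615 and 0.271). The labels do not say what the numbers mean. Alternatives were DESeq2 1.42.0, library size in place of TMM, no filter, only the 2 groups compared, the replicate block, no fold threshold, limma 3.58.1 on log2(FPKM + 1), leaving out each mouse and, added after seeing the data, the block with only the 2 groups compared.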

Additional observations from a re-analysis of the deposited data

How the results depend on the processing

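The number of the 8 genes that passed the thresholds was 0 in both comparisons under every alternative tried. Over all genes it was 0 as well, except that DESeq2 called 1 gene, not of the set, between Lira and T1D mice. In T1D against NGT mice the median log2 fold change of the 8 genes was 0.67, between 0.56 and 0.75 under the alternatives that keep all mice and between 0.46 (without T1D mouse 1) and 1.14 (without NGT mouse 1) when 1 mouse was left out, and the values of all 8 genes stayed above 0. In Lira against T1D mice it was -0.03, and between -0.39 (without Lira mouse 3) and 0.21 (without T1D mouse 1) with 1 mouse left out, so that its sign was not stable. *Fosb* fell from 0.72 to 0.18 in T1D against NGT mice with limma on log2(FPKM + 1), where the pseudocount outweighs its level. With the replicate block the medians were 0.68 and -0.02, 3 and 0 of the 8 genes had p-values under 0.05 without adjustment, against 5.39% and 3.63% of tested genes (*Fosl2*, *Junb* and *Jund* in the first comparison, *Fos* no longer), and over all genes 0.865 and 0.988 were the lowest adjusted p-values (edgeR quasi-likelihood F-test). With the block and only the 2 groups compared, the medians were 0.73 and -0.07, 4 and 0 of the 8 genes had such a p-value, against 14.2% and 1.89% of tested genes, and the lowest adjusted p-values were 0.23 and 1.00 in the same test. The block changed no call. The separation of T1D from NGT mice in *Fosl2*, *Junb* and *Jund* was seen in TMM-scaled CPM and, together with that of *Fos*, in the unscaled counts, but not in CPM by library size or in FPKM. Depth limits *Fosl1* and *Fosb*, and 3 mice per group limit all other comparisons.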
